A study of Mus musculus with 18 samples.

Results

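Expression of 149 voltage-gated and transient receptor potential (Trp) ion channel genes was examined in cells of mouse small intestinal crypts, separated by their level of a Flattop reporter. The genes were taken by symbol from the array's single-gene probe sets, as the Scn sodium channels, the Cacna, Cacnb and Cacng calcium channel subunits, all Kcn potassium channel genes and the Trpa, Trpc, Trpm and Trpv channels. They make up 149 of the 19938 genes measured, and each was represented by its probe set with the highest mean. The symbol rule also took in 6 genes that are no channel subunit, among them the antisense transcripts Kcnd3os, Kcnmb4os1, Kcnmb4os2 and Trpc5os. The symbol rule itself uses no measured value, though it was set with earlier results of these data known.

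Crypts were taken at 4 months of age from C57Bl6/J animals of the genotype FltpZV/+, which carry a Venus reporter at Flattop (Cfap126), a planar cell polarity gene. Single cells were sorted by reporter level into high, low and negative gates, and all 3 gates therefore carry the reporter allele. Each gate had 2 arrays, each array held a pool of 2 animals, and the labels do not say whether arrays with equal replicate numbers share a pool. The samples of a lineage-tracing line in the same series are not analysed here.

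Voltage-gated sodium, calcium and potassium channels open when the membrane depolarises, and their pore-forming alpha subunits work with auxiliary beta, alpha-2-delta or gamma subunits. In the gut epithelium they are best known from enteroendocrine cells, which fire action potentials and release hormone on calcium entry. Trp channels are cation channels that open to chemical or physical stimuli. Trpa1, which senses irritants, is known from serotonin-releasing enterochromaffin cells. In other crypt cells, potassium channels of the basolateral membrane keep the driving force for chloride secretion.

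Values are RMA values on the log2 scale, so a difference of 1 is a doubling of signal. A background level of 4.23 was set at the 95th percentile of the mean values of 1207 olfactory, vomeronasal and trace amine receptor genes. A gene was counted as near background where its mean lay above this level in no gate. Above the level lay 65.6% and 69.6% of all genes on the high arrays, 62.8% and 63.1% on the low arrays, and 61.4% and 62.5% on the negative arrays. Of the channel genes, 60 and 83 lay above it on the high arrays, 64 and 66 on the low arrays, and 44 and 47 on the negative arrays. The high arrays were the less alike pair, with a Pearson correlation over all genes of 0.946, against 0.975 for the low pair and 0.981 for the negative pair. All 12 crypt epithelium markers measured, Epcam and Cdh1 among them, lay above background on both arrays of every gate. RNA of bulk sorted cells cannot tell fewer cells of a type from less RNA per cell. The p-values measure only the spread between arrays, which may be technical.

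Differences between gates were found for 16 of the 149 channel genes in at least 1 of 3 comparisons (limma, adjusted p under 0.05 over all genes). The share of all genes called in at least 1 comparison was not counted, so the 16 are not read against one. In low against negative cells 13 channel genes rose, which is 8.72% of them, against 3.42% of all genes tested, and 2 fell, 1.34% against 2.54% of all genes. In high against negative cells 1 rose and 1 fell, each 0.671% of the channel genes, against 1.36% of all genes rising and 3.35% falling. In high against low cells 3 rose and 7 fell, 2.01% and 4.7% of the channel genes, against 1.01% and 3.89% of all genes. Comparisons of the same 3 gates share arrays and are not independent of each other. Counts by channel family below are small, stand beside these same shares, and are not read as results about a family. With arrays centred on their medians, 577 genes rose and 586 fell in low against negative cells, in place of 681 and 507, and 11 channel genes rose and 2 fell. The median change over the 149 genes was 0.01 for low minus negative, 0.23 for high minus negative and 0.21 for high minus low cells. Over all genes these medians were -0.03, 0.10 and 0.13. With quantile normalization 324 genes rose and 297 fell in high against negative cells, in place of 272 and 667, and in high against low cells 326 rose and 616 fell, in place of 202 and 776. With arrays centred on their medians, 1 channel gene rose and 4 fell in high against negative cells.

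Leaving out single arrays moved these counts. In low against negative cells the channel genes that rose numbered 7 without low replicate 1, 9 without low replicate 2 and 5 without either negative array, in place of 13, and those that fell numbered 1 without low replicate 2 or either negative array, in place of 2. In high against negative cells none was called without either negative array, 3 rose and 2 fell without high replicate 1, and 2 rose and 3 fell without high replicate 2. In high against low cells none rose without either low array, in place of 3.

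**Figure D1:**
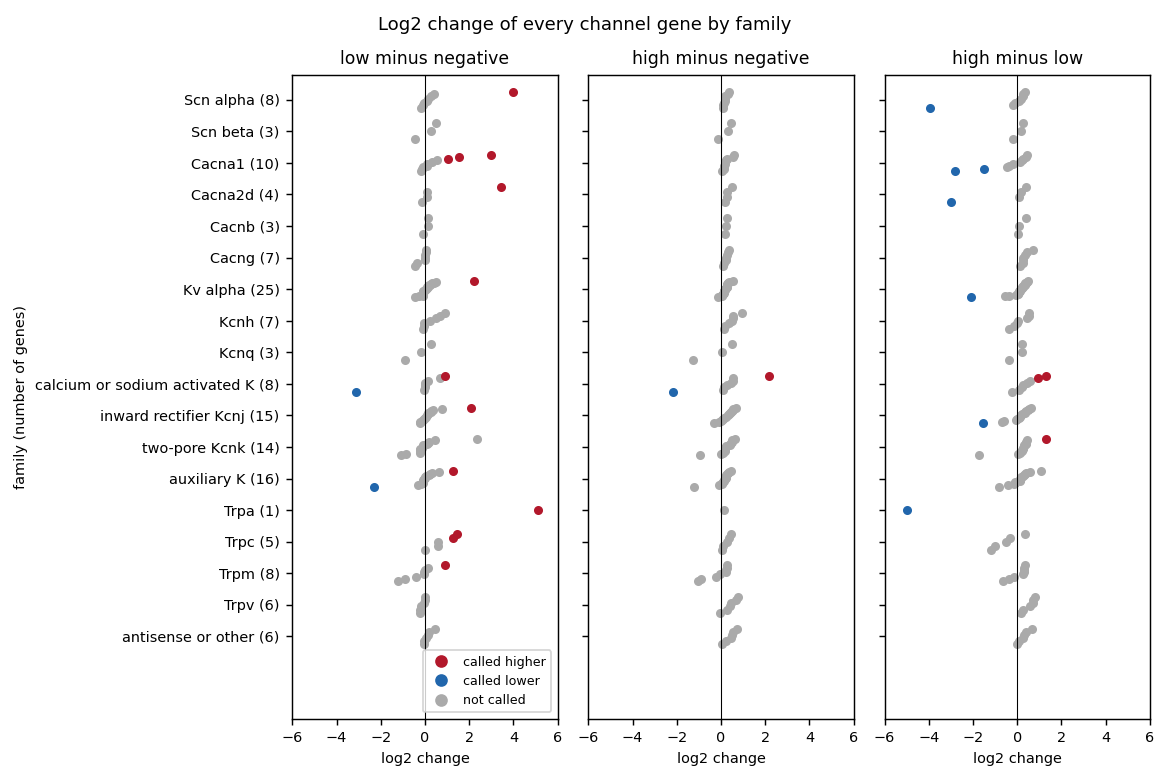
Log2 change of each of the 149 genes in low minus negative, high minus negative and high minus low cells (horizontal axes), by family (vertical axis, number of genes in parentheses). Red and blue points mark genes called higher and lower at an adjusted p under 0.05, and the gene with the largest change, Trpa1, stands at 5.11 in low minus negative and at -4.98 in high minus low cells.

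Upstream sequences were available for 9 of the 16 called genes in the RefSeq promoter table (GRCm38.p6), which holds entries for 117 of the 149. Cacna1a, Cacna1h, Kcnab3, Kcnb2, Kcnk6, Scn3a and Trpa1 are named only. The 250 bases before the gene start are given for 4 genes with different patterns over the gates, picked with their values known. Cacna2d1 and Kcnj3 were higher in low than in negative cells, Kcnma1 was higher in high cells and Kcnn4 lower in both reporter gates. Capitals mark E-boxes (CANNTG, the same on both strands).
Cacna2d1 (chr5:15934441-15934690, plus strand): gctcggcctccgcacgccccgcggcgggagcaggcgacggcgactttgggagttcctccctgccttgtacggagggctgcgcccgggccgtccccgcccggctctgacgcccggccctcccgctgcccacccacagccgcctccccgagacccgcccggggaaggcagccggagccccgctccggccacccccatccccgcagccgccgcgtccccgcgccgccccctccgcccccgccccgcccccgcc
Kcnj3 (chr2:55435720-55435969, plus strand): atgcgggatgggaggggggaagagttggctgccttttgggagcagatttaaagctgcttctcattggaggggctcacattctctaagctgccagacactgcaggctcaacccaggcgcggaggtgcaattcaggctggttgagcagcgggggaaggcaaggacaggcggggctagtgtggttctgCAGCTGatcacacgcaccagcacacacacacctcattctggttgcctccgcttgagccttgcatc
Kcnma1 (chr14:24004206-24004455, minus strand): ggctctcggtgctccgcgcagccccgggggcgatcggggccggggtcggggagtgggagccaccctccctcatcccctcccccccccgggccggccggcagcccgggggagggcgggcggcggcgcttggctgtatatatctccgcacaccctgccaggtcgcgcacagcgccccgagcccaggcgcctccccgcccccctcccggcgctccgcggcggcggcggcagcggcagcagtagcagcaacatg
Kcnn4 (chr7:24370013-24370262, plus strand): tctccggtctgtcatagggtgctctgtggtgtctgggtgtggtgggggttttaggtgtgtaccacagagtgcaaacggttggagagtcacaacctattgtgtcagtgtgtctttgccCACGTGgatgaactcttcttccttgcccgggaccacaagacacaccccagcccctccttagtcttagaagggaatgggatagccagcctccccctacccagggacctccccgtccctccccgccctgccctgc
The windows of Cacna2d1 and Kcnma1 were 82.4% and 79.2% G or C with 36 and 31 CpG dinucleotides, where the median promoter of the table had 52.4% and 6. Those of Kcnj3 and Kcnn4 had 58.4% and 58.8%, with 7 and 6 CpGs. An E-box was found at position -65 of Kcnj3 (CAGCTG) and at -133 of Kcnn4 (CACGTG), counted back from the gene start. The windows of Cacna2d1 and Kcnma1 held none. E-boxes are common, in 66.2% of the 32851 promoters of the table and in 67.3% of the 156 promoters of channel genes. The GC box GGGCGG, searched on both strands, stood 6 times in Cacna2d1, 3 times in Kcnma1 and 1 time in Kcnn4, and was found in 32.7% of all promoters and 38.5% of those of channel genes. These matches describe the letters and are not binding sites.

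Trpa1, the irritant sensor, showed the largest difference of any channel gene. Its values (probe set 10353221) were 3.79 and 3.78 on the high arrays, 8.33 and 9.21 on the low arrays and 3.58 and 3.73 on the negative arrays. Only the low arrays lay above background, and they did not overlap with the others. The fitted log2 change was 5.11 ± 0.30 (SE) in low against negative cells (adjusted p = 0.000455) and -4.98 ± 0.30 in high against low cells (adjusted p = 0.000633). Where no array of the dimmer gate lies above background, the dim level has only a bound, and the change is given as at least that against the background level. For Trpa1 this made low cells at least 23.3-fold higher than negative cells. High and negative cells differed by 0.13 (adjusted p = 0.811), both below background.

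Scn3a, an alpha subunit of the voltage-gated sodium channel, followed the same order of gates. It stood (probe set 10483228) at 3.51 and 3.51 on the high arrays, 7.09 and 7.78 on the low arrays and 3.48 and 3.40 on the negative arrays. Low cells exceeded negative cells by 4.00 ± 0.25 (adjusted p = 0.000635), at least 9.25-fold, and high cells lay below low cells by a change of -3.93 (adjusted p = 0.00072). None of the other 7 alpha subunits was called. The alpha subunits Scn1a, Scn7a, Scn8a, Scn9a, Scn10a and Scn11a were near background. The brightest of the 14 probe sets of Scn2a read 4.30 and 4.73 on the high, 4.29 and 4.24 on the low and 4.52 and 4.16 on the negative arrays. Its other probe sets had means of 2.80 to 4.02 over the 6 arrays, below the background level. Among them, 10472364 read 5.40 and 4.04 on the high arrays, a high minus negative change of 1.15. Among the beta subunits, which tune gating and surface level, Scn3b and Scn4b were near background and Scn2b was above it on 1 negative array, at 4.71.

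**Figure D2:**
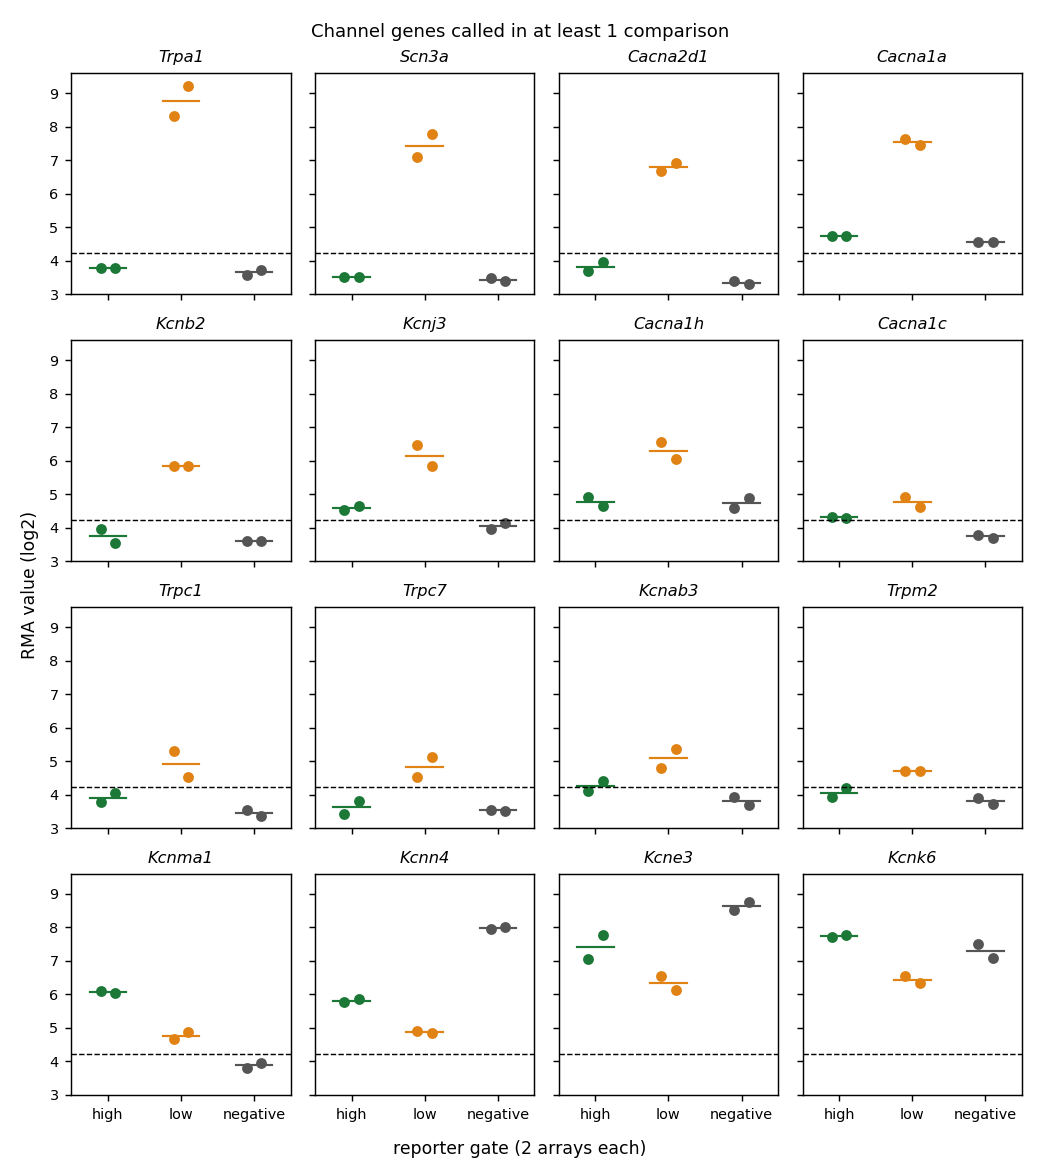
RMA values (log2, vertical axes) of the 16 called genes on the 2 arrays of the high, low and negative gates (points), with gate means (short lines) and the background level of 4.23 (dashed). Trpa1, Scn3a, Cacna2d1 and Kcnb2 lie above the dashed line on the low arrays and below it on the other 4, while Kcnma1 is highest on the high arrays and Kcnn4 on the negative arrays.

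Of the calcium channel genes, 4 of 24 rose in low against negative cells and none fell, where 3.42% of all genes rose and 2.54% fell. Cacna2d1, an alpha-2-delta subunit that carries the pore to the membrane and is the target of gabapentin, read 3.69 and 3.97 on the high, 6.68 and 6.93 on the low and 3.41 and 3.30 on the negative arrays. It rose by 3.45 ± 0.20 in low against negative cells (adjusted p = 0.000455), at least 5.97-fold, and fell by 2.98 in high against low cells (adjusted p = 0.000805). Its other probe set gave 3.59 and 3.56, 6.64 and 6.36, and 3.13 and 3.21 over the same gates. Cacna1a, the P/Q-type pore, read 4.75 and 4.75 on the high, 7.62 and 7.47 on the low and 4.56 and 4.55 on the negative arrays. It was therefore above background in every gate. Its high and negative arrays lay below a stricter level of 4.98, the 99th percentile of the receptor genes. Under that level its fold would be only a bound. Low cells exceeded negative cells 7.94-fold (2.99 ± 0.18, adjusted p = 0.000455), and high cells lay below low cells by a change of -2.80 (adjusted p = 0.000711).

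Cacna1h, a T-type pore that opens at low voltage, lay above background in every gate as well, with its high and negative arrays below the stricter level. It read 4.91 and 4.65 on the high, 6.54 and 6.05 on the low and 4.59 and 4.90 on the negative arrays, a rise of 1.55 ± 0.24 in low against negative cells (adjusted p = 0.0163). The high against low change was -1.52 (adjusted p = 0.0197). The L-type pore Cacna1c read 4.33 and 4.29 on the high, 4.91 and 4.62 on the low and 3.78 and 3.70 on the negative arrays. Its rise in low against negative cells was 1.02 ± 0.19 (adjusted p = 0.0275), at least 1.45-fold. The second L-type pore known from endocrine cells, Cacna1d, moved by 0.53 (95% interval 0.08 to 0.98, adjusted p = 0.19) and was not called. With 1 array left out, Cacna1h lost the low against negative call without low replicate 1 or either negative array (adjusted p 0.0819 to 0.134) and the high against low call without low replicate 1 or high replicate 2 (0.0648 to 0.111). Cacna1c lost its call without any 1 of the 4 low and negative arrays (0.0867 to 0.18).

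The remaining calcium channel genes gave no call. Cacna1e, Cacna1f and Cacna1s were near background, and Cacna1b, Cacna1g and Cacna1i changed by at most 0.52 in any comparison. All 3 beta subunits measured, which chaperone the pore, were above background in some gate. Cacnb1 read 4.90 and 4.74 on the high, 4.66 and 4.91 on the low and 4.44 and 4.83 on the negative arrays, and the gates overlapped. In the Cacng family, of which several members serve AMPA receptors and not calcium channels in the brain, the 7 genes changed by -0.47 to 0.06 in low against negative cells. Cacng4 read 5.82 and 6.09 on the high, 5.30 and 5.93 on the low and 5.59 and 5.57 on the negative arrays.

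Among the voltage-gated potassium channel alpha genes, 1 of 25 was called. Kcnb2, a delayed rectifier of the Kv2 type that repolarises the membrane after an action potential, read 3.96 and 3.53 on the high, 5.86 and 5.85 on the low and 3.61 and 3.62 on the negative arrays. It rose by 2.24 ± 0.21 in low against negative cells (adjusted p = 0.00303), at least 3.09-fold, and fell by 2.11 in high against low cells (adjusted p = 0.0031). Of the other 24, 14 were near background. Kcna3, known as the Kv1.3 channel of T cells, read 6.01 and 5.97 on the high, 6.63 and 6.08 on the low and 6.00 and 5.70 on the negative arrays, and its change of 0.51 in low against negative cells was not called (adjusted p = 0.341).

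Among the inward rectifiers, which hold the resting potential, 1 of 15 was called. Kcnj3, a subunit of the G-protein-gated channel, read 4.52 and 4.66 on the high, 6.46 and 5.83 on the low and 3.95 and 4.15 on the negative arrays. Low cells exceeded negative cells by 2.09 ± 0.25 (adjusted p = 0.0064), at least 3.79-fold, and the high against low change was -1.56 (adjusted p = 0.0197). The first call was lost without either negative array (0.0562 to 0.0754) and the other without low replicate 1 or high replicate 2 (0.0543 to 0.0903). Kcnj11, the pore of the ATP-sensitive channel that couples glucose to hormone release in beta cells, was above background and flat. It read 5.19 and 5.24 on the high, 5.37 and 5.12 on the low and 5.24 and 5.22 on the negative arrays, with a low minus negative change of 0.01 (95% interval -0.43 to 0.45). Kcnj13 gave values between 4.84 and 6.02 that overlapped between gates, and 9 inward rectifiers, Kcnj1, Kcnj15 and Kcnj16 among them, were near background.

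Apart from Kcnma1, described below, the remaining genes that rose in low against negative cells lay close to background. Trpc1 and Trpc7, cation channels that open downstream of phospholipase C, rose by 1.45 ± 0.28 (adjusted p = 0.0322) and 1.29 ± 0.26 (adjusted p = 0.0352). Trpc1 read 3.77 and 4.05 on the high, 5.30 and 4.53 on the low and 3.55 and 3.37 on the negative arrays. For Trpc7 the values were 3.42 and 3.81 on the high, 4.52 and 5.11 on the low and 3.54 and 3.51 on the negative arrays. Only their low arrays lay above background, so the rises were at least 1.61-fold and at least 1.5-fold. Trpm2, opened by ADP-ribose under oxidative stress, read 3.91 and 4.18 on the high, 4.70 and 4.70 on the low and 3.90 and 3.73 on the negative arrays, at least 1.39-fold higher in low than in negative cells (adjusted p = 0.0459). Kcnab3, an auxiliary beta subunit of potassium channels, read 4.10 and 4.39 on the high, 4.79 and 5.36 on the low and 3.94 and 3.69 on the negative arrays, at least 1.81-fold higher (adjusted p = 0.0358). These calls did not hold with single arrays left out. Trpc1 lost its call without low replicate 1 or either negative array (0.119 to 0.198), and Trpc7 without low replicate 2 or either negative array (0.173 to 0.196). Trpm2 and Kcnab3 lost theirs without any 1 of the 4 low and negative arrays (0.184 to 0.266 and 0.0503 to 0.219).

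Markers of other cell types moved with the low gate. All 24 enteroendocrine markers measured rose in low against negative cells and 23 fell in high against low cells. Their summed signal, off the log scale, was 2267 to 3118 on the high arrays, 55145 to 59116 on the low arrays and 858 to 1134 on the negative arrays, and 10 of the 24 were above background on no negative array. The T and natural killer cell list had 10 of 13 genes rising in low against negative cells and 13 falling in high against low cells, with sums of 2545 to 2873 on the high, 24837 to 24978 on the low and 8337 to 9995 on the negative arrays. Of the enteric neuron and glia list 1 of 13 genes, Ret, rose in low against negative cells. In high against negative cells 1 rose, and in high against low cells 1 fell. The sums of the list were 274 to 295 on the high, 328 to 342 on the low and 223 to 224 on the negative arrays. Of the 13 genes, 7 were above background on both high arrays, 5 on both low arrays and 3 on both negative arrays. The neuronal genes Elavl4 and Chat were above it on none of the 6 arrays. Vim was the 1 gene of 14 to rise in the smooth muscle and fibroblast list, and none of 8 endothelial genes was called. In the myeloid and mast cell list 5 of 14 genes rose and 2 fell, with sums of 1347 to 1404 on the high, 3856 to 4296 on the low and 1422 to 1547 on the negative arrays. The part of the enteroendocrine, T cell and myeloid lists in the channel values was not tested.

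Kcnn4 and Kcne3 were the 2 channel genes that fell in low against negative cells. Kcnn4, a calcium-activated channel of intermediate conductance that supports chloride secretion in crypts, read 5.77 and 5.86 on the high, 4.91 and 4.85 on the low and 7.96 and 8.0 on the negative arrays (probe set 10550877). All arrays lay above background, though the low arrays lay below the stricter level of 4.98. No gates overlapped, and the negative arrays were highest. It fell by 3.10 ± 0.17 in low against negative cells, 8.59-fold (adjusted p = 0.000455), and by 2.16 ± 0.17 in high against negative cells, 4.47-fold (adjusted p = 0.00572). High cells exceeded low cells by 0.94 ± 0.17 (adjusted p = 0.032). Leaving out an array kept the low against negative call in all 4 cases. The high against negative call was lost without either negative array (0.0809 to 0.0855), and the high against low call without either low array or high replicate 2 (0.0656 to 0.167).

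Kcne3, the beta subunit that holds Kcnq1 open in intestinal crypts, read 7.05 and 7.79 on the high, 6.55 and 6.12 on the low and 8.53 and 8.76 on the negative arrays. Low cells fell by 2.31 ± 0.29 against negative cells, 4.97-fold (adjusted p = 0.00782). This call was lost without low replicate 2 or either negative array (0.0546 to 0.0792). The high against negative change of -1.23 was not called (adjusted p = 0.0687), though it was without high replicate 2 (-1.60, adjusted p = 0.0406). Without high replicate 1, the high against low change of 1.08 (adjusted p = 0.0962) was called at 1.45 (adjusted p = 0.0323). The pore Kcnq1 read 6.37 and 7.13 on the high, 6.95 and 7.30 on the low and 7.93 and 8.13 on the negative arrays. Both reporter gates lay below the negative gate without overlap, by -1.28 in high cells (adjusted p = 0.0586) and -0.90 in low cells (adjusted p = 0.144), and neither change was called. Without high replicate 2 the high against negative change was -1.66 and called (adjusted p = 0.0332). With all its arrays this change of Kcnq1 was called with centred arrays (0.0416) or with only genes above background tested (0.0462), and the low against negative change in a fit of the 4 arrays compared (0.0489) or with array weights (0.0455). Centring also gave Kcne3 a high against negative call (0.0484).

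Among genes of chloride transport outside the channel families, picked for their known roles and not as a list, Cftr and Slc12a2 were read beside Kcnn4. Cftr, the apical chloride channel, read 5.18 and 5.39 on the high, 4.81 and 5.76 on the low and 7.44 and 7.56 on the negative arrays, and fell by 2.21 in both low (adjusted p = 0.0118) and high cells (adjusted p = 0.0186). Slc12a2, the basolateral chloride loader, changed by -1.27 in low against negative cells (adjusted p = 0.0271) and by 1.17 in high against low cells (adjusted p = 0.0406). Its high against negative change of -0.09 was not called (adjusted p = 0.831). Of 28 anion channel genes 3 fell and 1 rose in low against negative cells, where 2.54% of all genes fell and 3.42% rose. In high against negative cells 5 fell and none rose, against 3.35% and 1.36% of all genes. The lists of other cells moved here too: all 11 cell cycle genes fell in low against negative cells and 8 fell in high against negative cells, as did 3 and 6 of 14 enterocyte genes and 3 and 2 of 8 B and plasma cell genes. The T and natural killer cell list had 11 of 13 genes falling in high against negative cells. Cell cycle sums were 831 to 1192 on the high, 574 to 613 on the low and 2455 to 2542 on the negative arrays. Their part in the potassium channel values was not tested.

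Kcnma1, the pore of the large-conductance calcium-activated BK channel, was the 1 channel gene that rose in high against negative cells. It read 6.09 and 6.03 on the high, 4.66 and 4.87 on the low and 3.81 and 3.95 on the negative arrays, and no gates overlapped. High cells exceeded negative cells by 2.18 ± 0.18 (adjusted p = 0.00577), at least 3.57-fold, and low cells by 1.3 ± 0.18, 2.46-fold (adjusted p = 0.0124). The low arrays lay below the stricter level of 4.98. Low against negative, the change of Kcnma1 was 0.88 ± 0.18 (adjusted p = 0.0407). Its other probe set was dim, with 3.10 and 4.20 on the high, 3.15 and 3.00 on the low and 3.16 and 3.24 on the negative arrays. With the mean of both probe sets the high against negative change was 1.32 and still called, and the low against negative call was lost (adjusted p = 0.475), as was the high against low call (0.94, adjusted p = 0.0674). The high against negative call was also lost without either negative array (0.0789 to 0.0896), the high against low call without either low array (0.0579 to 0.0908), and the low against negative call without any 1 of its 4 arrays (0.119 to 0.251).

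Lrrc26, an auxiliary subunit that lets BK channels open at rest in epithelial secretory cells, was also highest on the high arrays. It read 9.55 and 9.33 on the high, 6.70 and 7.75 on the low and 8.08 and 7.70 on the negative arrays. High cells exceeded low cells by 2.22 ± 0.35 (adjusted p = 0.0188), and the change of 1.55 against negative cells was not called (adjusted p = 0.0595). Kcnk6, a two-pore channel, read 7.71 and 7.78 on the high, 6.54 and 6.33 on the low and 7.52 and 7.09 on the negative arrays. It rose by 1.31 ± 0.22 in high against low cells (adjusted p = 0.0213), with no call in low (-0.86, adjusted p = 0.0709) or high cells (0.44, adjusted p = 0.281) against negative cells. That call was lost without either low array or high replicate 2 (0.0624 to 0.129), and the low against negative change was called with array weights (0.0347). Of the 12 Paneth cell markers measured, 9 rose in high against negative cells, 9 in low against negative cells and 1 in high against low cells. Their sums were 54615 to 68963 on the high, 41201 to 44569 on the low and 10857 to 14577 on the negative arrays. Of 10 stem cell markers 2 rose in high against negative cells and 3 in high against low cells, and 1 fell in low against negative cells. Slc12a2, given above with chloride transport, is also on the stem cell list. Of 8 goblet markers 1 rose and 1 fell in high against negative cells, and 1 rose in high against low cells. Goblet sums were 19064 to 22707 on the high, 13833 to 14446 on the low and 19725 to 22764 on the negative arrays. The part of these 3 lists in these values was not tested.

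**Figure D3:**
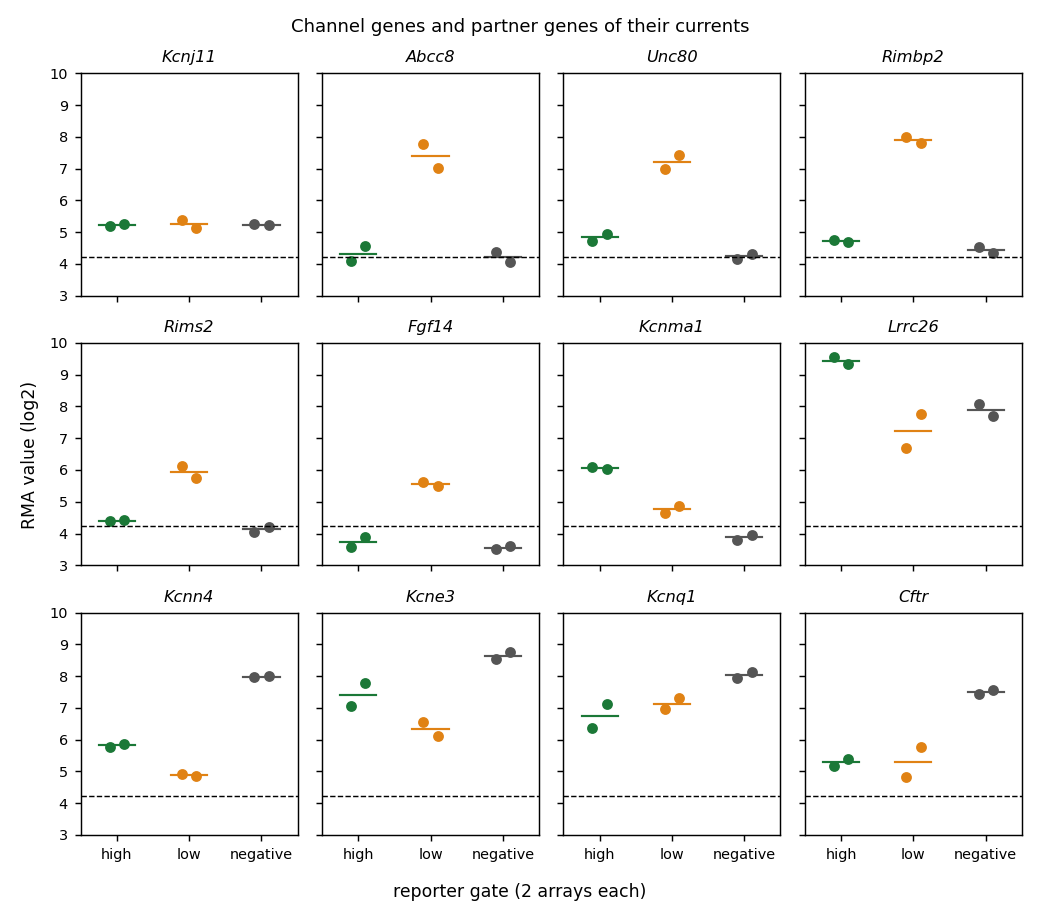
RMA values (log2, vertical axes) of channel genes and of genes whose products bind or serve the same currents, on the 2 arrays of the high, low and negative gates (points), with gate means (short lines) and the background level of 4.23 (dashed). Abcc8 is highest in the low gate while Kcnj11 is level, Kcnma1 and Lrrc26 are highest in the high gate, and Kcnn4, Kcne3, Kcnq1 and Cftr are highest in the negative gate.

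A list of 26 auxiliary subunits and regulators outside the symbol rule was read beside the channel genes. In low against negative cells 7 rose and none fell, with a median change over the list of 0.11. Of all genes 3.42% rose and 2.54% fell in that comparison. In high against negative cells none was called at a median of 0.28. In high against low cells 1 rose and 5 fell at a median of 0.14, where 1.01% of all genes rose and 3.89% fell. Abcc8, the sulfonylurea receptor that pairs with the flat Kcnj11, read 4.08 and 4.56 on the high, 7.79 and 7.02 on the low and 4.37 and 4.06 on the negative arrays, a rise of 3.18 ± 0.31 in low against negative cells (adjusted p = 0.0034). Since 1 of its 2 negative arrays lay above background, no fold is given. Of the 26 genes, 18 were above background on no negative array. For such genes the dim level has only a bound, and the changes given here and below are the fitted values. Rimbp2 and Rims2, which tether calcium channels at vesicle release sites, rose by 3.46 ± 0.19 (adjusted p = 0.000455) and 1.80 ± 0.21 (adjusted p = 0.00568). Fgf14, a cytoplasmic modulator of sodium channels, rose by 1.99 ± 0.19 (adjusted p = 0.00339).

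Unc80 and Unc79 hold the sodium leak channel at the membrane. They rose by 2.96 ± 0.22 (adjusted p = 0.00129) and 0.94 ± 0.17 (adjusted p = 0.026) in low against negative cells, while the leak channel pore Nalcn itself changed by 0.18 (adjusted p = 0.783) at values of 3.82 to 4.23. Amigo1, a partner of Kv2 channels such as Kcnb2, rose by 1.13 ± 0.23 (adjusted p = 0.0386). Of 49 genes of other cation channels and their regulators, 3 rose in low against negative cells and none fell. Of all genes 3.42% rose and 2.54% fell. The 3 were the channels Hcn4 (1.40, adjusted p = 0.0146) and Asic5 (1.74, adjusted p = 0.00847) and the regulator Stim2 (1.69, adjusted p = 0.0493). The list was put together with earlier results of these data known, and 21 of its 49 genes were above background on no negative array. Calls of the partner genes and of Hcn4, Asic5 and Stim2 were not followed with arrays left out. The call of Stim2 lay close to the threshold.

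The two-pore potassium channels, which carry resting leak currents, were above background in some gate for 12 of 14 genes, and Kcnk6 alone was called. Kcnk1 read 8.04 and 8.36 on the high, 7.77 and 8.54 on the low and 7.78 and 7.61 on the negative arrays, without a call. Kcnk16, known from pancreatic islets, read 5.13 and 4.75 on the high, 7.77 and 5.55 on the low and 4.32 and 4.32 on the negative arrays. Its low minus negative change of 2.34 ± 0.63 was the largest of any uncalled channel gene, and its 2 low arrays lay further apart than those of any other channel gene named here (adjusted p = 0.0892). Kcnk5, an acid-sensitive channel of transporting epithelia, read 4.48 and 5.95 on the high, 4.80 and 5.38 on the low and 6.42 and 5.94 on the negative arrays, and the changes of -0.97 in high and -1.09 in low cells against negative cells were not called (adjusted p = 0.286 and 0.293).

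Of the ether-a-go-go family, Kcnh2 read 6.69 and 5.86 on the high, 6.30 and 6.14 on the low and 5.45 and 5.20 on the negative arrays. Both reporter gates lay above the negative gate, by 0.95 in high (adjusted p = 0.124) and 0.90 in low cells (adjusted p = 0.151), and neither was called. The low against negative change was called in a fit of the 4 arrays compared (0.038) and with array weights (0.0436). Without high replicate 2 the high against negative change was 1.36 and called (adjusted p = 0.0394). Of the 16 auxiliary potassium channel genes, 12 were near background, Kcne2 among them.

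Among the Trpm genes, Trpm5 and Trpm4, calcium-activated monovalent cation channels, had lower gate means in both reporter gates, without a call in the fit reported here. Trpm5, a tuft cell taste-transduction channel, read 3.90 and 3.72 on the high, 3.74 and 4.17 on the low and 5.0 and 4.71 on the negative arrays, above background only in the negative gate. The changes were -1.04 in high (adjusted p = 0.0523) and -0.90 in low cells (adjusted p = 0.0734). The first was called with a trend and robust prior, centred arrays or quantile normalization (0.0385 to 0.0471), and the other with array weights (0.0339). None of the 12 tuft cell markers measured, of which Trpm5 is 1, was called in any comparison. Their sums were 381 to 411 on the high, 346 to 393 on the low and 466 to 510 on the negative arrays. Trpm4 read 6.91 and 5.48 on the high, 5.88 and 5.88 on the low and 7.0 and 7.19 on the negative arrays, and its high arrays lay apart. Without high replicate 1 its high against negative change was -1.62 and called (adjusted p = 0.0161), against -0.90 (adjusted p = 0.269) with all arrays. Its low against negative change of -1.22 (adjusted p = 0.179) was called in a fit of the 4 arrays compared (0.0136) and with array weights (0.0394).

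Trpm7, a channel fused to a kinase and tied to magnesium uptake, read 5.74 and 5.60 on the high, 6.16 and 5.94 on the low and 5.91 and 5.88 on the negative arrays, without a call. Trpm6, its close relative, was near background. None of the 6 Trpv genes was called. Trpv4, opened by osmotic and mechanical stimuli, read 5.59 and 4.77 on the high, 4.57 and 4.39 on the low and 4.69 and 4.74 on the negative arrays. Without high replicate 2 its high against low change was 1.11 and called (adjusted p = 0.0472), against 0.70 (adjusted p = 0.21) with all arrays. Trpv6, the calcium uptake channel of the gut, passed the background level on 1 high array, at 4.50, with a high gate mean of 4.30. Trpv1 and Trpv3 also passed it on 1 high array, each at 4.42, but in no gate mean. They and Trpv5 were near background.

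In all, 71 of the 149 channel genes were near background and 78 lay above it in at least 1 gate, 52.3%, where 70.5% of all genes did. The values of the 71 ran from 2.78 to 4.53, and none was called. The nearest on either side of the level were Kcnk18, with a highest gate mean of 4.22, and Kcnk9, with 4.24. Their median change was 0.22 for high minus negative and 0.24 for high minus low cells, and over all genes near background it was 0.19 and 0.23. Near background were 6 of 8 Scn alpha, 14 of 25 voltage-gated potassium alpha, 9 of 15 inward rectifier and 12 of 16 auxiliary potassium genes, against 2 of 14 two-pore genes and none of 3 Cacnb genes. A gene near background may be present below what the array reads. The lack of a call in these genes does not show that the gates are equal.

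**Figure D4:**
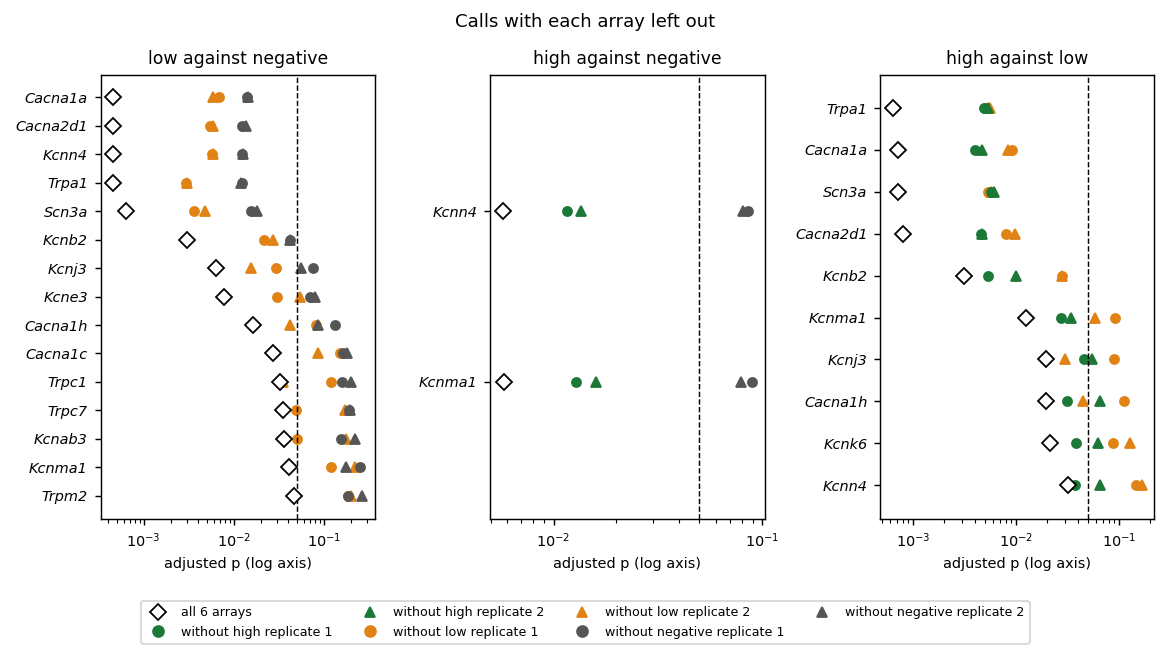
Adjusted p (horizontal axes, log scale) of every called gene with all 6 arrays (diamonds) and with 1 array of the comparison left out (circles for replicate 1, triangles for replicate 2, coloured by gate), with the threshold of 0.05 (dashed). Trpa1, Scn3a, Cacna2d1, Cacna1a and Kcnb2 stay left of the threshold in both comparisons with the low gate, Kcnn4 does so in low against negative cells, and both high against negative calls pass it without a negative array.

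Leaving out an array gives a gate with a lone array, which is assumed to vary like the other gates. With 1 array left out at a time, 6 of the 15 low against negative calls were kept in all 4 cases: Trpa1, Scn3a, Cacna2d1, Cacna1a, Kcnb2 and Kcnn4. Of the 10 high against low calls 5 were kept in all 4 cases: Trpa1, Scn3a, Cacna2d1, Cacna1a and Kcnb2. Neither of the 2 high against negative calls was kept in all 4, since both were lost without negative replicate 1 or negative replicate 2.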

How the data were processed

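Gene expression was measured on 1-colour Affymetrix arrays. The labels' protocols give column RNA extraction with DNase treatment, whole-transcript amplification and biotin labelling. The submitters' processing notes name RMA and Affymetrix Expression Console 1.3.0.187 as the authors' tools. The deposited values were taken to be on the log2 scale. Of 18 sample columns, 6 hold values in the file used here and 12 are empty. The genome build of the array annotation is not given in the sources used here.

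Of 35556 probe sets, 21789 had a single symbol, 1621 several and 12146 none. Genes with several probe sets (999 of them) were represented by the brightest on average over the 6 arrays. limma 3.58.1 (lmFit, eBayes; R 4.3.3) was fitted to 3 group means over 6 arrays, two-sided, with Benjamini-Hochberg adjustment over 19938 genes, and an adjusted p below 0.05 counted as a call. The number of arrays limits the precision. The background level and the "at least" folds are as stated with the results. The rule for the latter was chosen after seeing the data. The fit was also run on simulated data, with the same spread in every gate and changes planted only in genes above background. That setting differs from these arrays, so the run does not bear on the single calls.

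The named genes were the 4 marker genes, every called gene above background on both arrays of its brighter gate, the gene with the highest mean of each family, and channels well known in gut epithelium or endocrine cells. Kcnk16, Cacna1b, Cacna1g, Cacna1i, Cftr, Slc12a2 and the partner genes are named outside this rule, with their values known. The members and all lists were chosen with earlier results of these data known. Alternatives changed the scaling, the prior, array weights, which arrays were fitted, how probe sets were summarised, a dim-gene filter, the background percentile and a block for the replicate number, and left out each array in turn. Plots were made with Python 3.11.15 and matplotlib 3.10.9.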

Additional observations from a re-analysis of the deposited data

How the results depend on the processing

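Over the named genes, 1414 of 1500 values under alternatives stayed on the same side of the threshold, 60 lost and 26 gained a call. No value called in the main fit or the alternative changed direction. For values called in neither, direction was not counted. With 1 array left out, the channel genes that rose numbered 5 to 9 in low against negative cells (13 with all arrays), 0 to 3 in high against negative cells (1) and 0 to 4 in high against low cells (3), and those that fell 1 to 2 (2), 0 to 3 (1) and 5 to 8 (7). Those that fell in low against negative cells numbered 4 in a fit of only the 4 arrays compared and 6 with array weights. Those that fell in high against negative cells numbered 4 with arrays centred on their medians, and 2 with a trend and robust prior, with only the 62 genes whose mean was above background, with quantile normalization and with the replicate number as a block. With array weights 1 gene rose in high against low cells. Above background lay 41 channel genes at the 99th percentile of the receptor genes and 103 at the 90th.

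Among single calls outside leaving out arrays, Trpm2 lost its call with centring, quantile normalization or the block (0.0551 to 0.0619), and the low against negative call of Kcnma1 was lost with these or the mean of the probe sets (0.0526 to 0.475). The high against low call of Kcnn4 was lost with 4 arrays, the trend and robust prior or array weights (0.0578 to 0.0913), those of Kcnj3 and Cacna1h with 4 arrays (0.0555 and 0.0507), and that of Kcnk6 with array weights (0.0503). The Kcnma1 loss with the mean of the probe sets follows from its dim probe set. For the others the cause was not tested. Trpc7 gained a high against low call (0.050028 as reported) under 5 alternatives. Same-numbered arrays' deviations from their gate means correlated at 0.10 (low and negative), 0.10 (high and negative) and 0.08 (high and low). These correlations cannot show whether such arrays share a pool. The main fit did not pair the arrays. The replicate number as a block gave 11 rising genes in low against negative cells in place of 13. It also gave 8 falling genes in high against low cells in place of 7, with Trpc7 gained (0.0403), and Kcnq1 gained in high against negative cells (0.0319).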

Other observations

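Probe sets that the array annotation assigns to several channel genes were left out above and cannot be named to 1 gene. The probe set shared by Scn9a and Scn3a read 3.24 and 3.49 on the high, 6.22 and 6.34 on the low and 3.27 and 3.07 on the negative arrays. The one shared by Scn3a and Scn1a read 3.62 and 3.58 on the high, 4.86 and 5.98 on the low and 3.32 and 3.20 on the negative arrays. Another, shared by Scn2a, Scn9a and Scn3a, read 2.93 and 2.80 on the high, 3.40 and 3.74 on the low and 2.75 and 2.93 on the negative arrays, all below background. All 3 were highest on the low arrays, and Scn3a is the symbol they share. The probe sets of Scn1a and Scn9a alone were near background in every gate.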
